A study of Mus musculus with 6 samples.

Results

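The genes described here encode ligands and receptors through which myeloid cells help or restrain T cells. They are Cd274, Pdcd1lg2, Cd80, Cd86, Cd40, Icosl, Vsir, Havcr2, Lgals9 and Cd200r1, 10 of the 16254 genes of the count table. These genes were chosen by name for their known roles, with earlier results of these data known. They were measured by RNA sequencing in eosinophils grown from the bone marrow of C57BL/6 mice with FLT3 ligand and stem cell factor and then IL-5. In the EV group, 3 cultures were kept for 24 h with extracellular vesicles (EVs) isolated from the medium of activated TH2 cells, which had been restimulated on antibodies to CD3 and CD28. In the sham group, 3 cultures were kept for 24 h with unconditioned medium taken through the same isolation. The methods give 5e9 EVs/ml as the dose for treating such eosinophils and do not repeat it for the sequenced cultures. The cultures are a model of the mature blood or tissue eosinophil made in vitro. No library of untreated cells or of rested TH2 cell EVs is analysed here. The paper reports that EVs of this kind improved the survival of such eosinophils over untreated ones and reduced apoptosis. The share of living cells in the sequenced cultures is not given in the sources used here. The part of cell survival in the differences below was therefore not tested.

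A T cell needs a second signal beside antigen. CD80 and CD86 give it through CD28 and withdraw it through CTLA-4, ICOS ligand gives it through ICOS, and CD40 receives help from CD40 ligand on the T cell. PD-L1 (Cd274) and PD-L2 (Pdcd1lg2) restrain T cells through PD-1, VISTA (Vsir) and galectin-9 (Lgals9) also act as brakes, and TIM-3 (Havcr2) and the CD200 receptor (Cd200r1) are inhibitory receptors that myeloid cells carry themselves. Eosinophils of the airway and gut are known to carry several of these molecules.

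The libraries held between 23697573 and 37874393 rounded counts. All 10 genes passed the filter on low counts. Normalized counts are rounded counts divided by the library size after TMM scaling, which levels composition between libraries. The fit covered all 13498 genes tested and used the quasi-likelihood test of edgeR. P-values were adjusted by the Benjamini-Hochberg method over all of them, and a gene was called when its adjusted p was under 0.01. The genes that mark eosinophils were abundant, with a summed level of 30150 to 37991 CPM (counts over the TMM-scaled library size) in sham-treated and 43082 to 48169 CPM in EV-treated libraries, and 8 of 11 were higher with EVs.

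In EV- versus sham-treated eosinophils, 5 of the 10 genes rose, namely Cd80, Cd86, Cd40, Icosl and Vsir, and none was called lower. At an unadjusted p under 0.05, 1 gene was lower, Havcr2, which DESeq2 also called. Of the 13498 genes tested, 3092 were lower at that cut. Among all genes tested, 12.1% were called higher and 11.6% were called lower. The rise was 2.68-fold for Cd86, 2.24-fold for Cd80, 1.87-fold for Cd40, 1.78-fold for Icosl and 1.41-fold for Vsir. Both PD-1 ligands had a fold change of 1.05 and were not called. The median log2 fold change was 0.39 over the 10 genes and -0.01 over all genes tested. In 8 of the 10 genes every EV-treated library lay on one side of every sham-treated library, which held for 49.6% of all genes tested, and the exceptions were Cd274 and Pdcd1lg2. Scaled by total counts alone, without the TMM step, 1036 genes were higher and 2342 lower in place of 1632 and 1572, with the median of all genes shifted by -0.15 on the log2 scale, and the number of the 10 genes called higher was again 5.

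**Figure D1:**
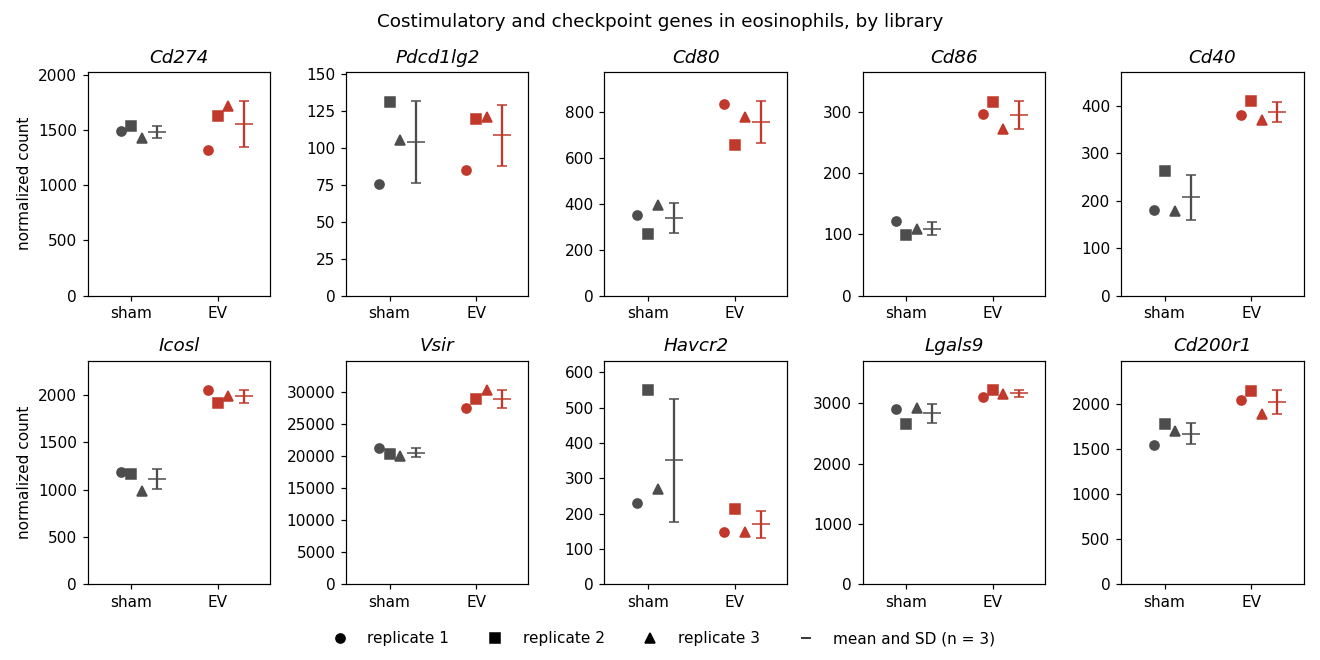
Normalized counts of the 10 genes in each library (vertical axes from 0), with sham-treated cultures in grey and EV-treated cultures in red. Symbols mark the replicate number and bars the mean and SD of 3 libraries. The red and grey points are apart for Cd80, Cd86, Cd40, Icosl and Vsir and intermixed for Cd274 and Pdcd1lg2, and sham replicate 2 stands above the others for Havcr2.

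Cd80 and Cd86, the ligands that CD28 and CTLA-4 share, showed the largest increases of the 10 genes. Cd86 had 122, 99.3 and 108 normalized counts in sham replicates 1 to 3 and 297, 317 and 272 in EV replicates 1 to 3. The lowest EV-treated library thus held over 2 times the count of the highest sham-treated one. Its log2 fold change was 1.42 (SE 0.18, edgeR adjusted p = 0.000165), above that of 97.2% of all genes tested. Cd80 had 352, 267 and 394 normalized counts in the sham-treated and 835, 656 and 779 in the EV-treated libraries. The groups were again far apart, at 338 ± 64.5 (SD, n = 3) and 757 ± 91.8 (SD, n = 3). Its log2 fold change was 1.16 (SE 0.16, adjusted p = 0.000315). With each library left out in turn, both genes kept an adjusted p under 0.01 in all 6 fits, with log2 fold changes between 1.36 and 1.51 for Cd86 and between 1.02 and 1.29 for Cd80.

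Icosl, whose product binds ICOS on T cells and group 2 innate lymphoid cells, had 1183, 1163 and 991 normalized counts with sham and 2052, 1912 and 1991 with EVs. The spread within each group was small beside the gap between them. This was a log2 fold change of 0.83 (SE 0.08, edgeR adjusted p = 3.84e-05), and it lay between 0.77 and 0.89 when libraries were left out in turn.

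Cd40, the TNF receptor family member through which T cells license antigen-presenting cells, had 181, 262 and 179 normalized counts with sham and 381, 411 and 372 with EVs. Sham replicate 2 was the highest sham-treated library and still lay below every EV-treated one. On the log2 scale the change was 0.90 (SE 0.18, edgeR adjusted p = 0.00326). This call was the least secure of the 5. Without sham replicate 3, EV replicate 1, EV replicate 2 or EV replicate 3, the adjusted p was 0.0123, 0.0108, 0.0186 and 0.0142 in turn, and the log2 fold change stayed between 0.82 and 1.11 over the 6 fits.

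Vsir, which encodes the inhibitory B7 family protein VISTA, had by far the most counts of the 10 genes, above 99.1% of all genes tested. It had 21261, 20322 and 20036 normalized counts with sham and 27542, 28904 and 30317 with EVs. The relative change was modest but the libraries of each group lay close together, at 20539.6 ± 641 (SD, n = 3) and 28921 ± 1388 (SD, n = 3). Its log2 fold change was 0.49 (SE 0.06, edgeR adjusted p = 7.37e-05), and it was 0.34 with total counts alone (adjusted p = 0.000354). Of the 5 genes that rose, Vsir is thus a brake on T cells, Cd80 and Cd86 serve both a stimulating and an inhibitory receptor, and Icosl and Cd40 are costimulatory.

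**Figure D2:**
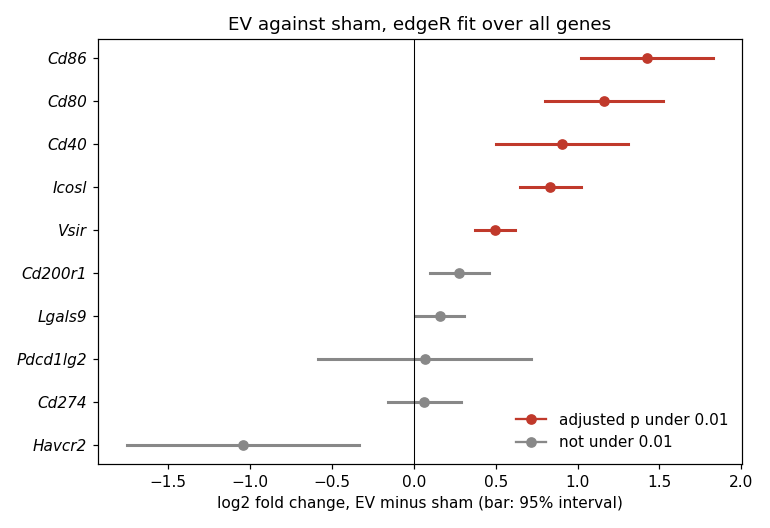
Log2 fold change of each gene, EV minus sham (horizontal axis), with its 95% interval from edgeR's quasi-likelihood fit, in order of size. Red genes had an adjusted p under 0.01. Cd86 and Cd80 are at the top at 1.42 and 1.16, the intervals of Cd274 and Pdcd1lg2 span 0, and Havcr2 is lowest at -1.04 with a wide interval.

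The ligands of PD-1 gave no call. Cd274, which encodes PD-L1, had 1488.5, 1538 and 1430.1 normalized counts with sham and 1317, 1623 and 1717 with EVs. EV replicate 1 held the lowest and EV replicate 3 the highest value of the 6 libraries. The log2 fold change was 0.06 (edgeR adjusted p = 0.665), with a 95% interval from -0.16 to 0.29, so that a rise of the size seen in Vsir lies outside the interval. It was -0.09 with total counts alone. Pdcd1lg2, which encodes PD-L2, was scarce, with 75.7, 131 and 106 normalized counts with sham and 84.9, 120.0 and 121 with EVs. Its libraries overlapped fully, and replicate 1 was the lowest of each group. The log2 fold change was 0.07 (adjusted p = 0.886) with a wide 95% interval from -0.58 to 0.72, so that a change of the size seen in Vsir could not be detected at this depth and spread.

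Havcr2, which encodes TIM-3, was the only one of the 10 genes with a negative log2 fold change under TMM scaling, and with total counts alone Cd274 and Pdcd1lg2 were slightly negative too. It had 231, 550.3 and 271 normalized counts with sham and 149, 213 and 147 with EVs. Every EV-treated library was lower than every sham-treated one, but the gap between the nearest libraries was small and sham replicate 2 stood far above the other sham-treated cultures. The log2 fold change of -1.04 (SE 0.32) had a 95% interval from -1.75 to -0.33 and an edgeR adjusted p of 0.0276, which missed the threshold. The call depended on the fit. DESeq2 gave an adjusted p of 0.00564 for a log2 fold change of -1.04, edgeR with the replicate number as a blocking term gave 0.00107 for -0.97, and edgeR without sham replicate 1 gave 0.00929 for -1.26. Without sham replicate 2, the log2 fold change was -0.56 (adjusted p = 0.0797).

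Lgals9, which encodes galectin-9, a ligand of TIM-3, had 2908, 2655 and 2928 normalized counts with sham and 3109, 3222 and 3155 with EVs. The groups were apart but by little, with a log2 fold change of 0.16 (95% interval 0.02 to 0.30, edgeR adjusted p = 0.0814). It was 0.01 with total counts alone. Cd200r1, which encodes the inhibitory receptor of CD200, had 1542, 1777 and 1699.9 normalized counts with sham and 2046, 2149.7 and 1888 with EVs, also without overlap. The log2 fold change was 0.28 (95% interval 0.10 to 0.46, adjusted p = 0.0219), and 0.13 with total counts alone. Neither gene was called in any of the 12 alternative fits at the threshold of 0.01, and Cd200r1 passed a looser threshold of 0.05.

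Levels of different genes were compared per length, as normalized counts per kilobase of the median protein-coding transcript. On this scale Vsir led with 6698 ± 209 (SD, n = 3) with sham and 9431 ± 453 (SD, n = 3) with EVs. Lgals9 followed at 1862 and 2080.3, then Cd200r1 at 884 and 1072 and Icosl at 494 and 881. In EV-treated eosinophils, Cd80 at 445 ± 54.0 (SD, n = 3) and Cd274 at 429 ± 57.8 (SD, n = 3) did not differ beyond their spread, whereas with sham Cd80 at 199 lay below Cd274 at 410.1. Cd80 and Cd40, at 199 ± 37.9 and 183 ± 42.0 (SD, n = 3), did not differ beyond their spread with sham. Cd86 had the lowest mean with sham at 43.2 ± 4.44 (SD, n = 3), a level whose libraries overlapped those of Pdcd1lg2 at 61.7 ± 16.4 (SD, n = 3). With EVs, Cd86 at 116 ± 8.99 (SD, n = 3) stood above Pdcd1lg2 at 64.3 and Havcr2 at 64.5, which did not differ beyond their spread. Havcr2 with sham, at 134 ± 66.3 (SD, n = 3), overlapped Cd40. The order in the middle depended on the length used. With the merged exon length in place of the median transcript, Icosl at 241 stood below Cd274 at 410.1 with sham, and the pair had nearly the same mean with EVs, at 430 and 429. Cd274 at 429 per kilobase then also stood above Cd80 at 204 in EV-treated eosinophils, while the mean of Cd86 still went from below that of Pdcd1lg2 (30.0 against 53.1) to above it (80.6 against 55.4).

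**Figure D3:**
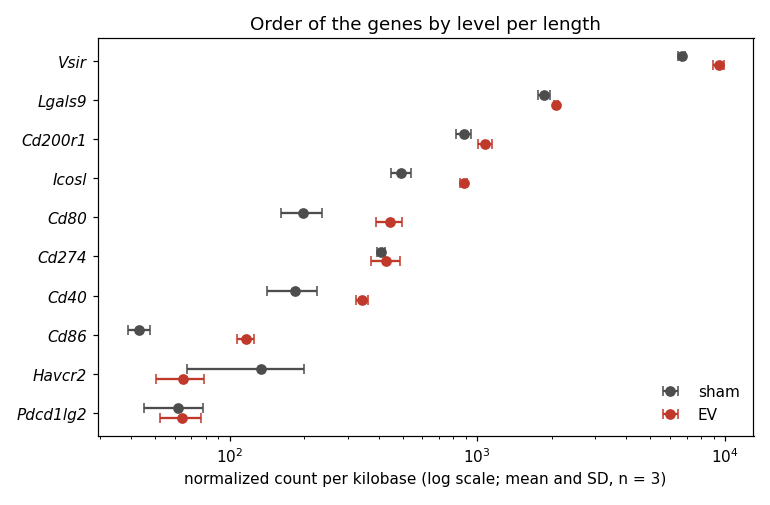
Mean and SD (n = 3) of the normalized count per kilobase of the median protein-coding transcript (horizontal log axis) for each gene with sham (grey) and with EVs (red). Vsir lies highest at 6698 and 9431, and Cd86 moves from 43.2 to 116, past Pdcd1lg2 at 61.7 and 64.3.

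Ratios of counts within a library do not depend on the scaling between libraries. The log2 ratio of Cd80 to Cd86 was 1.53, 1.42 and 1.86 with sham and 1.49, 1.05 and 1.52 with EVs. The groups overlapped, and the difference of -0.25 had a two-sided p of 0.4 in an exact permutation test. The log2 ratio of Cd274 to Pdcd1lg2 was 4.29, 3.55 and 3.75 with sham and 3.95, 3.75 and 3.82 with EVs, a difference of -0.02 (exact permutation p = 1). The log2 ratio of Lgals9 to Havcr2 was 3.65, 2.27 and 3.43 with sham and 4.38, 3.92 and 4.42 with EVs, a difference of 1.12 without overlap, which gave an exact permutation p of 0.1, the smallest that 3 against 3 libraries allow. The difference was 0.70 without sham replicate 2. Of these 3 ratios, none could reach the threshold in this design, and the ligand to receptor ratio was the only one whose groups did not overlap.

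**Figure D4:**
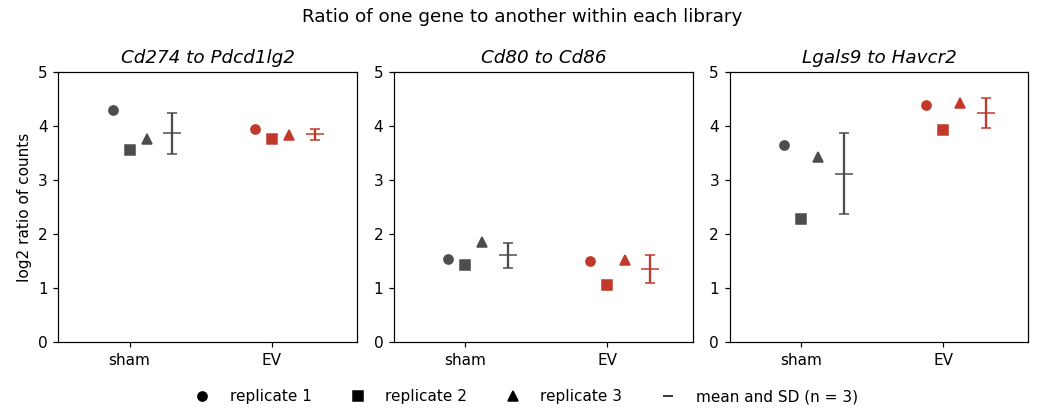
Log2 ratio of the counts of 2 genes within each library (vertical axis), with sham in grey and EV in red, symbols for the replicate number and bars for the mean and SD of 3 libraries. The ratios of Cd274 to Pdcd1lg2 and of Cd80 to Cd86 overlap between groups, and that of Lgals9 to Havcr2 is 3.12 with sham and 4.24 with EVs.

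The genes lie on 5 chromosomes of the GRCm38 (mm10) build, by the GENCODE annotation. Cd274 (chr19:29367455-29388095) and Pdcd1lg2 (chr19:29410919-29471161) are neighbours on the plus strand. Cd80 (chr16:38455561-38496335, plus strand), Cd86 (chr16:36603869-36666081, minus strand) and Cd200r1 (chr16:44765736-44794978, plus strand) share chromosome 16, Icosl (chr10:78069302-78083913, plus strand) and Vsir (chr10:60346851-60372684, plus strand) chromosome 10, and Havcr2 (chr11:46454935-46481255, plus strand) and Lgals9 (chr11:78962974-78984946, minus strand) chromosome 11. Cd40 is at chr2:165055627-165072948 on the plus strand. Each gene shares few of its 31-base words with other genes, at most 4.06% (Cd200r1, mostly with its paralogs Cd200r4 and Cd200r2). Transcripts were compared in their own direction only, and words shared with an opposite strand were not counted. A further transcript on the opposite strand, AC119228.1, covers 511 exonic bases of Cd274, and reads of both cannot be told apart if the counting did not use strand.

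PD-L1 and PD-L2 are known targets of interferon and of IL-4 signalling, which act through IRF and STAT factors. Sequences upstream of the RefSeq start of 7 of the genes were therefore searched on both strands for TTCNNNGAA (the STAT site GAS), for TTC and GAA with 4 bases between them (the spacing STAT6 prefers) and for GAAANNGAA (an IRF core), within 250 bases before and 50 after the start. Cd86, Cd40 and Cd200r1 were not searched. The sequences before the start are shown for the PD-1 ligands, which gave no call, and for Cd80 and Icosl, which rose, up to the first annotated exon, with matches in capitals. They are chr19:29367188-29367437, chr19:29410669-29410918, chr16:38458683-38458932 and chr10:78069118-78069301 in turn, all on the plus strand, as RefSeq gives them on GRCm38.p6. The Cd80 stretch lies inside the span that GENCODE gives the gene, outside its annotated exons.
Cd274: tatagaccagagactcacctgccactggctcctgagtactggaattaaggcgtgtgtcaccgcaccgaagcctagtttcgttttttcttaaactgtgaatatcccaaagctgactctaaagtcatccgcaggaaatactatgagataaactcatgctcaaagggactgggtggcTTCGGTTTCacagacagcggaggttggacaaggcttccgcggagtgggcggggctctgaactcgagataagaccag
Pdcd1lg2: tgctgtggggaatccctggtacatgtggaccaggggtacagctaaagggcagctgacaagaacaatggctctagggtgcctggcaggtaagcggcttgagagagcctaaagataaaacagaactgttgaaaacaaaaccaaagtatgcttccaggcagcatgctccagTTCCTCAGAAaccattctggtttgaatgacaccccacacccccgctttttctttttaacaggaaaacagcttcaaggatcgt
Cd80: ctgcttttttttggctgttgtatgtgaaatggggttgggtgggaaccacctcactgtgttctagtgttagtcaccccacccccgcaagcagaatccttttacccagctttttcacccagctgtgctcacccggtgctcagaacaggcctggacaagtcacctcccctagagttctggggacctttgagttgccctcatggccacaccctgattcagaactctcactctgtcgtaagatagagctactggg
Icosl: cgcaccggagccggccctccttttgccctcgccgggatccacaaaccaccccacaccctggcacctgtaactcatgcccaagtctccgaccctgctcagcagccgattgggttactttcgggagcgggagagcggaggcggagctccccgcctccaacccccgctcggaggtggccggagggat

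The window of Cd274 held 1 IRF core, read on the minus strand, and that of Pdcd1lg2 held 1 pair with the STAT6 spacing. Lgals9 held 2 IRF cores, 1 of them after the start. The windows of Cd80, Icosl, Vsir and Havcr2 held none of the 3 motifs, and GAS was found in none of the 7. Over 32851 windows of the same length, with 1 chromosome left out, 8.30% held GAS, 6.95% the STAT6 spacing and 8.56% the IRF core. These matches describe the letters alone, and binding was not measured.

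A list of 42 further genes of costimulation, with the receptors that pair with the 10 genes, gave 35 in the table and 25 that could be tested. Of these 25, 8 were called higher and 5 lower, against the 12.1% and 11.6% of all genes tested, with a median log2 fold change of 0.04. The T-cell receptors of these ligands were near absent. Pdcd1 (PD-1) was at 0 counts with sham and at most 3 with EVs, Ctla4 had at most 1 count in any library, and Icos had 5, 0 and 12 counts with sham and 1, 0 and 0 with EVs. Cd40lg is not analysed here.

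Cd28 was the exception among these receptors. It had 292, 707 and 679 normalized counts with sham and 27.0, 47.1 and 53.1 with EVs. It was thus 13.0-fold lower with EVs (log2 fold change -3.70, SE 0.37, edgeR adjusted p = 3.69e-05), in the opposite direction to its ligands Cd80 and Cd86. Sham replicate 1 was the lowest sham-treated library for Cd28 and for the other genes of this list called lower, Rgmb, Cd200, Cd276 and Cmtm4. For Cd200 and Cd276 it lay only just below sham replicate 2. It was also the lowest for 11 of 12 macrophage markers, which are described last. How many of all genes were lowest in this library was not counted, and the part of such cells in these decreases was not tested. Cd200, the ligand of the CD200 receptor, fell from 149, 153 and 200.5 to 25.0, 44.6 and 22.6 normalized counts (edgeR log2 fold change -2.44, adjusted p = 0.000332). Rgmb, a BMP coreceptor that binds PD-L2, fell from 111, 246 and 183 to 24.0, 34.3 and 14.8 (edgeR log2 fold change -2.88, adjusted p = 0.000392). Igsf11, a ligand of VISTA, had 7, 15 and 14 counts with sham and 0, 0 and 1 with EVs and was too scarce to test. Ceacam1, reported as a partner of TIM-3, had a log2 fold change of 0.40 and an edgeR adjusted p of 0.0101, which narrowly missed the threshold.

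The largest increase in this list was that of Cd226, an activating receptor for the nectin family, from 36.9, 6.13 and 31.6 to 503, 431 and 471 normalized counts (log2 fold change 4.19, SE 0.40, edgeR adjusted p = 2.58e-05). Cd244a, a SLAM family receptor, and Tnfrsf18, which encodes GITR, were higher by 1.79 (edgeR adjusted p = 5.5e-07) and by 1.75 (edgeR adjusted p = 8.52e-05) on the log2 scale. The remaining calls, named after their values were seen, included Cd48, the ligand of CD244, at 1.01 and Cd47, the ligand of SIRP alpha, at 1.01. Selplg, a further ligand of VISTA, rose by 0.93. Tnfsf14, which encodes LIGHT, a ligand of HVEM, had a log2 fold change of 0.24 and an edgeR adjusted p of 0.00993, barely under the threshold, and it was called in 2 of 12 alternative fits and in 0 of the 6 that left out a library. The other 12 called genes of this list were called in all 12. Cmtm6, which stabilizes the PD-L1 protein, rose by 0.56, while its relative Cmtm4 fell by 1.36 and Cd276, which encodes B7-H3, fell by 1.75 on the log2 scale. Of the ligand and receptor pairs, Cd48 and Cd244a were both higher, as were Selplg and Vsir, while Cd80 and Cd86 were higher and Cd28 lower. Cd47, Cd200 and Tnfsf14 were called but their partners Sirpa, Cd200r1 and Tnfrsf14 (HVEM) were not. These pairs were picked after the values were seen. Bulk RNA does not show whether the genes of a pair are in the same cells.

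**Figure D5:**
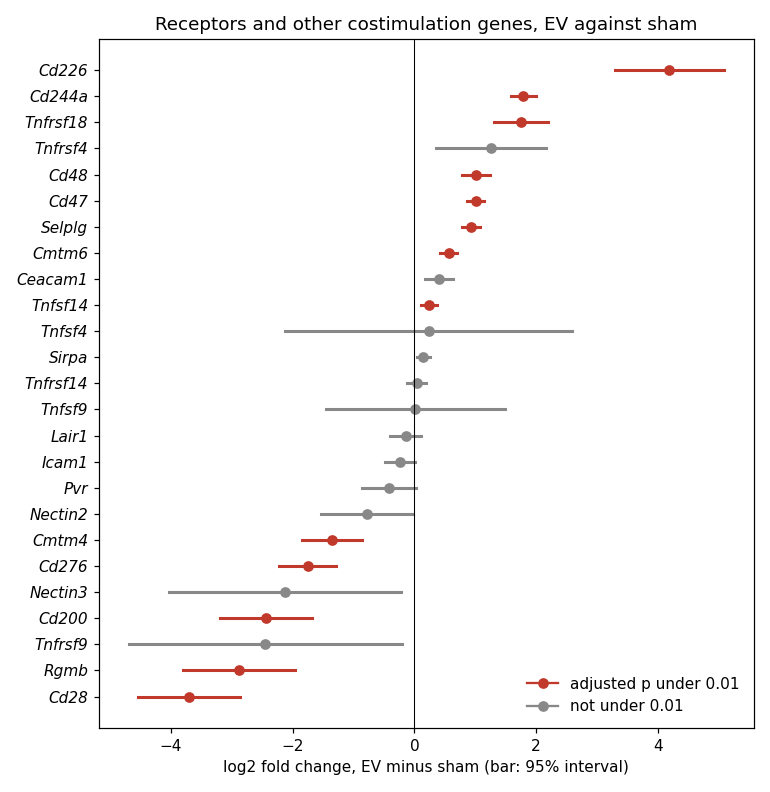
Log2 fold change, EV minus sham (horizontal axis), with its 95% interval for the 25 further costimulation genes that could be tested. Red genes had an adjusted p under 0.01 by edgeR. Cd226 is highest at 4.19 and Cd28 lowest at -3.70.

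The 10 genes are also known from macrophages, dendritic cells and B cells, so markers of these cells were measured beside them. In bulk RNA, fewer cells of a type cannot be told apart from less RNA per cell. Of 12 macrophage markers, 9 fell, 1 rose and 2 gave no call. Their summed level was 1497 to 2059 CPM with sham and 1327 to 1483 with EVs, and without Adgre1, which mouse eosinophils also express, it was 809 to 1375 with sham and 287 to 401 with EVs. Cd80, Cd86, Cd40, Icosl and Vsir rose in the EV-treated libraries, where 9 of these markers fell and 3 mast cell and basophil markers rose. Sham replicate 2 held the highest sham level of 9 of the 12 macrophage markers, and of Havcr2, Cd40, Cd274, Pdcd1lg2 and Cd200r1. It held the lowest sham level of Cd80, Cd86 and Lgals9 and the middle one of Icosl and Vsir. How many of all genes were highest in this library was not counted. Of 10 dendritic cell markers tested, 1 was lower and none higher, with sums of 223 to 323 CPM with sham and 208 to 278 with EVs. B cell markers summed to at most 7.19 CPM in any library and none of 5 was called. Mast cell and basophil markers were higher with EVs in 3 of 5 cases, with sums of 60.2 to 85.0 and 158 to 202 CPM. Of the T cell markers, Cd2, Cd5 and Thy1 had at most 3 counts in every library, and of 4 tested, 2 were higher, Il4 and Il13. Both are also known from eosinophils, and the source of their rise was not tested. The sum of 11 T cell markers was at most 20.9 CPM with sham and 31.6 to 34.6 CPM with EVs. Neutrophil markers summed to 514 to 598 and 563 to 672 CPM, with 2 of 8 higher and 4 lower. The parts of these cell types and of cell survival in the differences above were not tested.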

How the data were processed

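RNA from 6 cultures of bone marrow-derived eosinophils was sequenced after poly(A) selection. The authors used FastQC for read quality, Cutadapt for adapters, Salmon for quantification and DESeq2 for the comparison. Per the labels the build is mm10, and tool versions, annotation and strandedness are not given in the sources used here. The deposited estimated counts (16254 genes, not all whole numbers) were rounded to whole numbers. The deposited normalized counts, a signal that equals the rounded count plus 1 over a size factor for all but 5 values (tolerance 1e-04), served in alternatives. A deposited table of the authors' own comparison (fold changes and p-values) was not used.

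Counts were analysed with edgeR 4.0.16 in R 4.3.3 (TMM, filterByExpr, quasi-likelihood test, threshold 0.01), and tested on simulated data. There, DESeq2 exceeded the limit first set on false calls for all tools. The limit was then loosened for DESeq2 and limma, which gave alternatives only, and kept for edgeR. Standard errors are the log2 fold change over the square root of F. Normalized counts are relative to the geometric mean of the TMM-scaled library sizes. Ratios used a pseudocount of 0.5 and a two-sided exact permutation test in scipy 1.17.1. Alternatives were other scalings, no filter, other thresholds, a replicate block and leaving out each library. DESeq2 1.42.0, and limma 3.58.1 on the deposited normalized values (log2, with 1 added), gave further ones. Lengths, positions and shared words come from GENCODE M21, promoters from RefSeq (GRCm38.p6).

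The members and lists were chosen with earlier results of these data known. Named were all 10 members, their binding partners, and the 3 most increased and 3 most decreased called genes of the further list. The other 7 called genes of that list were named after their values were seen. Replicates are labelled as biological, with no statement of which cultures share a mouse. The deviations of same-numbered libraries from their group means correlated by 0.12, 0.08 and 0.04 across genes. Between differently numbered libraries the correlation ran from -0.12 to 0.05. These values do not settle whether the cultures were paired, and the main fit did not take the numbers as pairs. With the replicate block, 1794 of all genes tested were called higher and 1781 lower.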

Additional observations from a re-analysis of the deposited data

How the results depend on the processing

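Cd80, Cd86, Icosl and Vsir kept their direction and their call in all 12 alternative fits, and Cd40 in 8 of 12. The other 4 Cd40 fits each left out 1 library and so rest on fewer samples. Of the 10 genes, 2 were called higher when a log2 fold change of at least 1 was also asked, and 8 further costimulation genes became 5. The genes called lower numbered 1 in place of 0, which was Havcr2, with DESeq2, at an adjusted p under 0.05 and with a replicate block (log2 fold change -0.97, adjusted p = 0.00107), and between 0 and 1 with libraries left out in turn. With the replicate block, 5 of the 10 genes were again called higher, and the same-numbered libraries were not each other's best match in every case. Without sham replicate 1 the adjusted p of Havcr2 was 0.00929. Cd274 changed sign with total counts alone (-0.0858) and ranged from -0.008 to 0.1762 with libraries left out, and Pdcd1lg2 changed sign with total counts alone (-0.0855) and ranged from -0.1153 to 0.267. The cause was not tested. Pdcd1lg2 had the lowest mean count of the 10 genes in both groups, and its 95% interval ran from -0.58 to 0.72. Groups of 3 libraries were not examined for outliers.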
